A study of Mus musculus with 3 samples.

Results

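S100 proteins are small proteins with paired EF-hand motifs, and most of them bind calcium. Of their mouse genes, 7 (S100a4, S100a6, S100a8, S100a9, S100a10, S100a11 and S100a13) were followed here across the leukocytes of naive and transplanted lungs. They were matched by gene symbol among the 32285 genes of each library, and all 7 were found once in every library. S100A8 and S100A9 pair to form calprotectin, which fills much of the neutrophil cytosol and acts as an alarmin once released, through TLR4 and the receptor RAGE. The other 5 are mainly intracellular: S100A10 and S100A11 bind annexins at membranes, S100A4 binds nonmuscle myosin and is abundant in motile myeloid cells, S100A6 (calcyclin) binds annexins and ubiquitin-ligase adaptors, and S100A13 takes part in the export of proteins that lack a signal peptide.

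The libraries were made to describe B cell transcription after warm ischemia and syngeneic transplantation of a lung, by single-cell RNA sequencing of recipient leukocytes in 3 libraries, 1 per condition. The naive library came from left lungs of untransplanted C57BL/6J mice, and the other 2 came from left lung grafts of CD45.2 C57BL/6J donors harvested from B6 (CD45.1) recipients after 2 hours or 3 days of reperfusion. The labels give C57BL/6J for every library, while the methods name B6.SJL-Ptprca Pepcb/BoyJ as the CD45.1 strain. Both kinds of graft had been held for 60 minutes at 4 °C and a further 45 minutes at 28 °C, so cold storage, warm ischemia and surgery are shared by the transplant libraries and absent from the naive one. Each library pooled 2 mice, the ages of the mice are not given in the labels, and CD45.1 sorting is described although naive mice hold no recipient cells, so how naive leukocytes were gated is unclear. Since each condition had 1 library, nothing could be tested across mice. Every interval given is a 95% interval. For levels and ratios it covers counting error in the transcripts of 1 library or of 2 compared libraries. For shares of cells it covers the sampling of cells within 1 library. None covers differences between mice.

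The libraries differed in depth before any gene was compared. The naive library held 2921 barcodes, of which 2422 were kept, the 2-hour library 10328 with 10283 kept, and the 3-day library 9016 with 8324 kept. Median unique molecular identifiers (UMIs, each standing for 1 captured transcript) per kept cell were 7298, 878 and 5716, so the 2-hour cells were the shallowest. Between 1 and 23 barcodes were shared by any pair of libraries. Cell Ranger 7.1.0 appears in the header of the naive file and 6.0.0 in those of both transplant files. Genes with over 100 kb of introns were lower at 2 hours than in the naive library, with a median log2 ratio of -2.23 in lymphocyte-like cells, whereas genes with at most 10 kb of introns had a median of 0.16. The 7 S100 genes have between 364 and 9933 bases of introns. The grafts were sorted for recipient cells, whereas cells resident in the lung could enter the naive library. Library chemistry, read counting, time of harvest and cell origin cannot be told apart from the condition.

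All 7 genes lie on chromosome 3 in GRCm38 (mm10). S100a8 (ENSMUSG00000056054) spans bases 90668978 to 90670035 on the plus strand and S100a9 (ENSMUSG00000056071) bases 90692632 to 90695721 on the minus strand, in the same stretch as S100a4 (ENSMUSG00000001020; 90603771 to 90606045), S100a6 (ENSMUSG00000001025; 90612882 to 90624181) and S100a13 (ENSMUSG00000042312; 90514435 to 90524581). S100a11 (ENSMUSG00000027907; 93520488 to 93526287) and S100a10 (ENSMUSG00000041959; 93555080 to 93564643) lie further along the same chromosome. The annotated gene Gm42674 overlaps S100a4 on its own strand, and a pseudogene of S100a11 is annotated elsewhere, so reads of these 2 genes could be shared with another feature. The RefSeq windows from 250 bases before to 50 bases after the annotated start (GRCm38.p6) are printed for the alarmin pair, whose levels moved together, and for S100a4, which followed the monocytes. Capitals mark matches to a TATA box and to a motif of C/EBP factors, which drive granulocyte genes, both searched on both strands. The windows are chr3:90668821-90669120 (plus strand) for S100a8, chr3:90695672-90695971 (minus strand) for S100a9 and chr3:90603520-90603819 (plus strand) for S100a4, each written 5′ to 3′ along its gene.
S100a8: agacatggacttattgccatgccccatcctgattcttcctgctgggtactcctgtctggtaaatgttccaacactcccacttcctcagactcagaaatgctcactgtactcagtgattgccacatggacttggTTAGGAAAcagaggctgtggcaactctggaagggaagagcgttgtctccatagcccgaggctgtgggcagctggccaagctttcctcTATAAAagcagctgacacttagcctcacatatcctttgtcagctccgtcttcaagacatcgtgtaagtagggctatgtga
S100a9: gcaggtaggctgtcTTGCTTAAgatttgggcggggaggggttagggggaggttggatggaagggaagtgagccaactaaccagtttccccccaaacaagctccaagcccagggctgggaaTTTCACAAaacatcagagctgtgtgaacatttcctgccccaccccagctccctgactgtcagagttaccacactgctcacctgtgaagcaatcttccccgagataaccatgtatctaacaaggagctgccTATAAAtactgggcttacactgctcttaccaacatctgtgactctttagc
S100a4: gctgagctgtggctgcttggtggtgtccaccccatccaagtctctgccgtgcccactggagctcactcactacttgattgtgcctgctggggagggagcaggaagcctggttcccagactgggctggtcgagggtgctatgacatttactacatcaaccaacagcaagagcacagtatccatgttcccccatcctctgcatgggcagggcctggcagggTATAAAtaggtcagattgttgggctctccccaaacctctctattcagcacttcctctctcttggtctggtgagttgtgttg

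The TATA box, searched as TATAAA, was present once in each of these 3 windows, at -30 from the annotated start in S100a8, at the annotated start itself in S100a9 and at -31 in S100a4, and in 13.6% of all 32851 promoter windows. The C/EBP motif, searched as TTNCNNAA, was present once in S100a8, beginning at -117, at -236 and -130 in S100a9, and not in S100a4, against 40.7% of all windows. The AP-1 motif TGANTCA, held by 7.81% of windows, occurred at -136 and -38 in S100a11 and in none of the other windows found. The matches did not overlap one another, and they are matches of letters only. S100a10 had no entry in the promoter table.

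Cell classes were assigned from clusters built without any S100 gene. Of 29 clusters 24 were named from marker lists: neutrophil-like cells numbered 385 in naive lungs, 4020 after 2 hours and 2081 after 3 days, monocyte and macrophage-like cells 147, 450 and 2028, B-like cells 556, 1419 and 1916, T-like cells 578, 2514 and 1025, and NK-like cells 516, 1009 and 328. B-like, T-like and NK-like cells are together called lymphocyte-like. Nearly every cluster was made of a single library, so a class compared between libraries is a comparison of different clusters. Small endothelial-like groups of 34 to 128 cells were present in spite of the CD45 gate. Levels are given as CPM, the UMIs of a gene per 1000000 UMIs of all genes, summed over the cells of a class in a library.

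**Figure D1:**
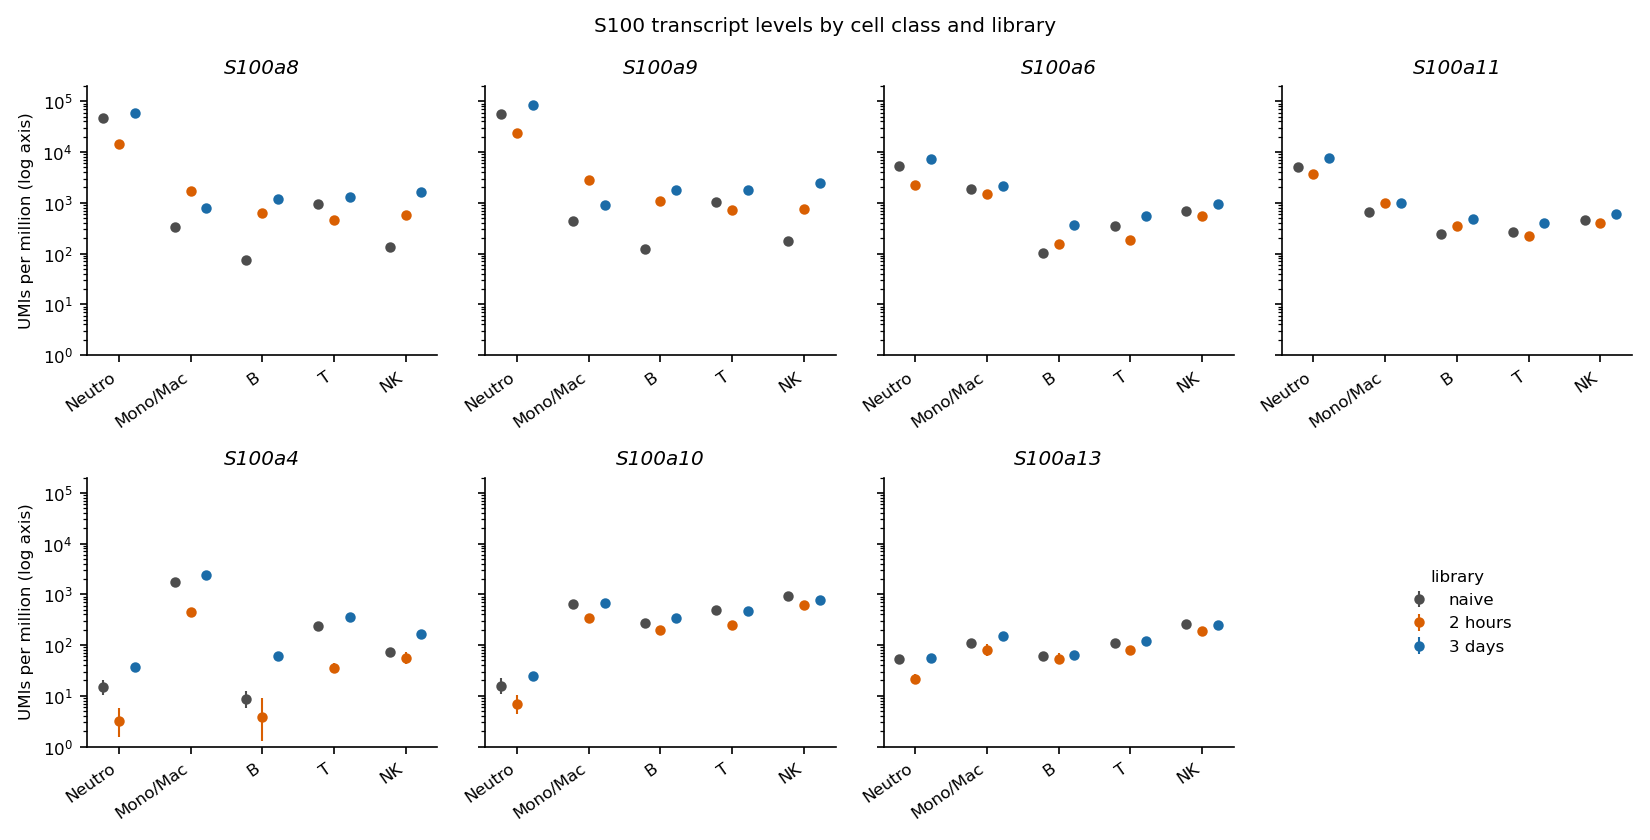
CPM of each S100 gene (log axis) in 5 cell classes of the naive (gray), 2-hour (orange) and 3-day (blue) libraries, with 95% Poisson intervals where they exceed the point. S100a8 and S100a9 stand highest in neutrophil-like cells of every library, S100a4 in monocyte and macrophage-like cells, and S100a10 is at or under 24.5 in neutrophil-like cells and at or over 198 in the other 4 classes.

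S100a8 and S100a9 were mainly neutrophil transcripts in all 3 libraries, and in neutrophil-like cells they were lowest at 2 hours and highest at 3 days. S100a8 was 46629 CPM in naive lungs, 14136 after 2 hours and 59150 after 3 days. S100a9 was 55865, 23564 and 83956 CPM in the same order. The 2-hour library was thus the low one for both genes, by 3.3-fold for S100a8 and 2.37-fold for S100a9 against the naive library. From 2 hours to 3 days the levels differed 4.18-fold (log2 ratio 2.06, interval 2.05 to 2.08) and 3.56-fold (log2 ratio 1.83, interval 1.82 to 1.84).

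Taken as 1 sum, the alarmin pair made up 10.2% of all UMIs in naive neutrophil-like cells, 3.77% at 2 hours and 14.3% at 3 days. Against naive cells the sum at 2 hours differed by -1.44 on the log2 scale (interval -1.45 to -1.43), and the 3-day sum stood 1.92 above the 2-hour one (1.92 to 1.93). The same order was seen cell by cell. The median cell gave 8.18% of its UMIs to the pair in naive lungs, 3.41% after 2 hours and 11.9% after 3 days, with quartiles of 3.98% and 13%, 2.08% and 5.19%, and 6.42% and 18.5%. The quartile ranges of the 2-hour and 3-day cells did not overlap, while those of the naive cells overlapped both. At the other end, neutrophil-like cells with no UMI of either gene were rare, at 2 of 385, 32 of 4020 and 0 of 2081.

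**Figure D2:**
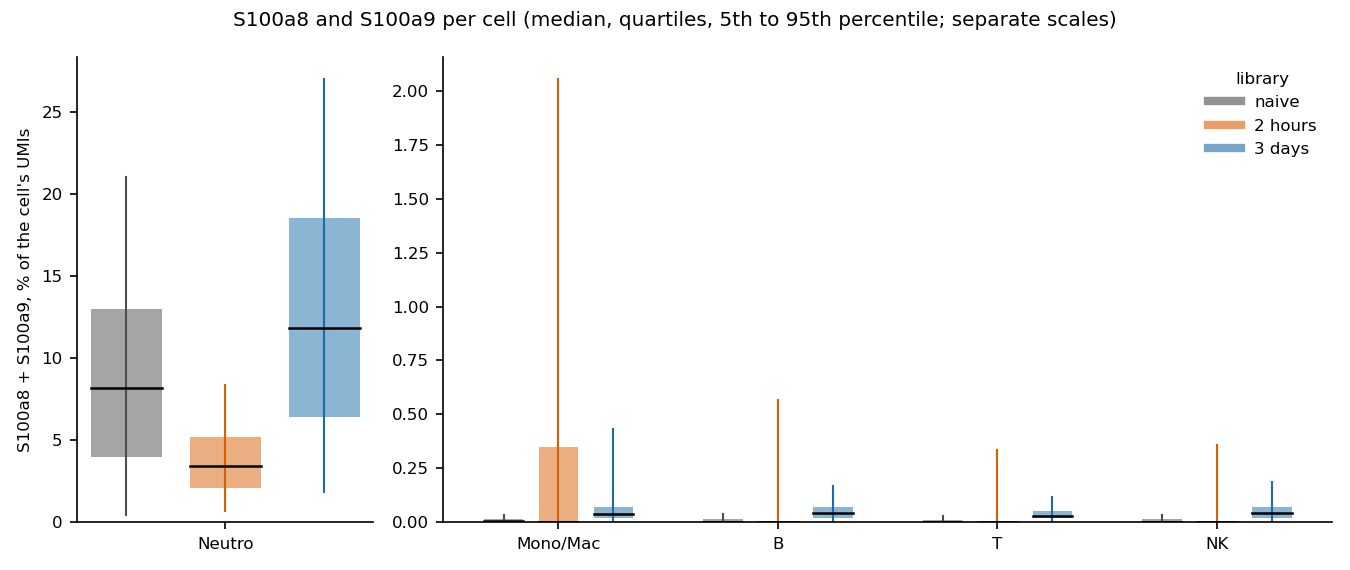
Percent of each cell's UMIs that came from S100a8 and S100a9, by class and library, on separate scales for neutrophil-like cells and the rest; bars span the quartiles, black lines mark medians and thin lines run from the 5th to the 95th percentile. Medians in neutrophil-like cells were 8.18%, 3.41% and 11.9%, and in every other class shown the median stayed under 0.05%.

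At 2 hours the neutrophil-like cells formed a pair of clusters. One, of 1088 cells, was led by the secondary granule genes Ngp, Camp and Ltf with Retnlg and Mmp8, and it held S100a8 at 20208 and S100a9 at 33831 CPM. The larger, of 2931 cells, was led by the club cell gene Scgb1a1 and by Tnfaip2 and Ccrl2, with Il1rn, Cxcl3 and Nlrp3 also among its leading genes, and it held 11661 and 19370 CPM. Both stood below the naive cluster of 378 cells (44562 and 53847) and the 3-day cluster of 2062 cells (59478 and 84433). A further 375 cells at 2 hours, led by Ccl4, Ccl3 and Spp1, had a neutrophil best score but were left unnamed, at 12428 and 20985 CPM. At 3 days 256 unnamed cells led by Tnf, Ccl3 and Siglecf held 15061 and 18340 CPM, below the named neutrophil cluster of that library, and their Retnlg was 257 against 7914 CPM.

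The number of S100a8 UMIs per S100a9 UMI also differed between libraries. It was 0.835 (interval 0.828 to 0.842) in naive neutrophil-like cells, 0.6 (0.593 to 0.607) at 2 hours and 0.705 (0.702 to 0.707) at 3 days. The 2 clusters at 2 hours gave 0.602 and 0.597, the granule-rich cluster being the second of them. It was 1.14 in the 3-day monocyte cluster led by Chil3, Vcan and Plac8, above every neutrophil cluster. In monocyte and macrophage-like cells at 2 hours it was 0.611 (0.569 to 0.656), overlapping the neutrophil-like interval.

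S100a6 and S100a11 were the other genes whose largest share of UMIs was in neutrophil-like cells. S100a6, which belongs to the same gene block as the alarmins, was 5324 CPM in naive neutrophil-like cells, 2192 at 2 hours and 7235 at 3 days. S100a11, a partner of annexin A1, was 5132, 3744 and 7510 CPM. Both were again lowest at 2 hours and highest at 3 days, and the 2-hour level was 2.43-fold below the naive one for S100a6 and 1.37-fold for S100a11. The 2-hour granule-rich cluster held more of each than the larger one, at 3133 against 1808 CPM for S100a6 and 4625 against 3384 for S100a11.

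The remaining 3 genes were scarce in neutrophil-like cells. S100a10 was 15.8, 6.87 and 24.5 CPM, S100a4 was 14.9, 3.15 and 37.4, and S100a13 was 53.7, 21.7 and 56.2. At 2 hours these are 24, 11 and 76 UMIs in 4020 cells. S100a10 was thus at least 198 CPM in each of the other 4 main classes and at most 24.5 in neutrophil-like cells.

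Counted against a 2-fold difference, 5 of the 6 S100 genes with enough UMIs were at least 2-fold lower in neutrophil-like cells at 2 hours than in naive ones, where 22.6% of 5701 genes were; only S100a11 was not, and S100a4 had too few UMIs to be counted. None was at least 2-fold higher, where 10.5% of genes were. At 3 days all 7 were at least 2-fold higher than at 2 hours, where 14.1% of 7414 genes were. None was lower, where 7.34% were. S100a11 only just passed, at a log2 ratio of 1.004 with a lower counting limit of 0.977. Among the alternatives its ratio went down to 0.912. S100a4 and S100a10 rested on 11 and 24 UMIs at 2 hours. At 3 days they were 37.4 and 24.5 CPM, beside 2358 and 664 in monocyte and macrophage-like cells. How much of these low levels is background was not tested. The median log2 ratio was 1.83 over the 7 genes against 0.2 over all genes. The 3-day and naive libraries were closer: 1 gene, S100a4, was at least 2-fold higher at 3 days, where 11% of 7279 genes were, and none was lower, where 14.4% were. The first 2 comparisons share the 2-hour library, so its low levels enter both.

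**Figure D3:**
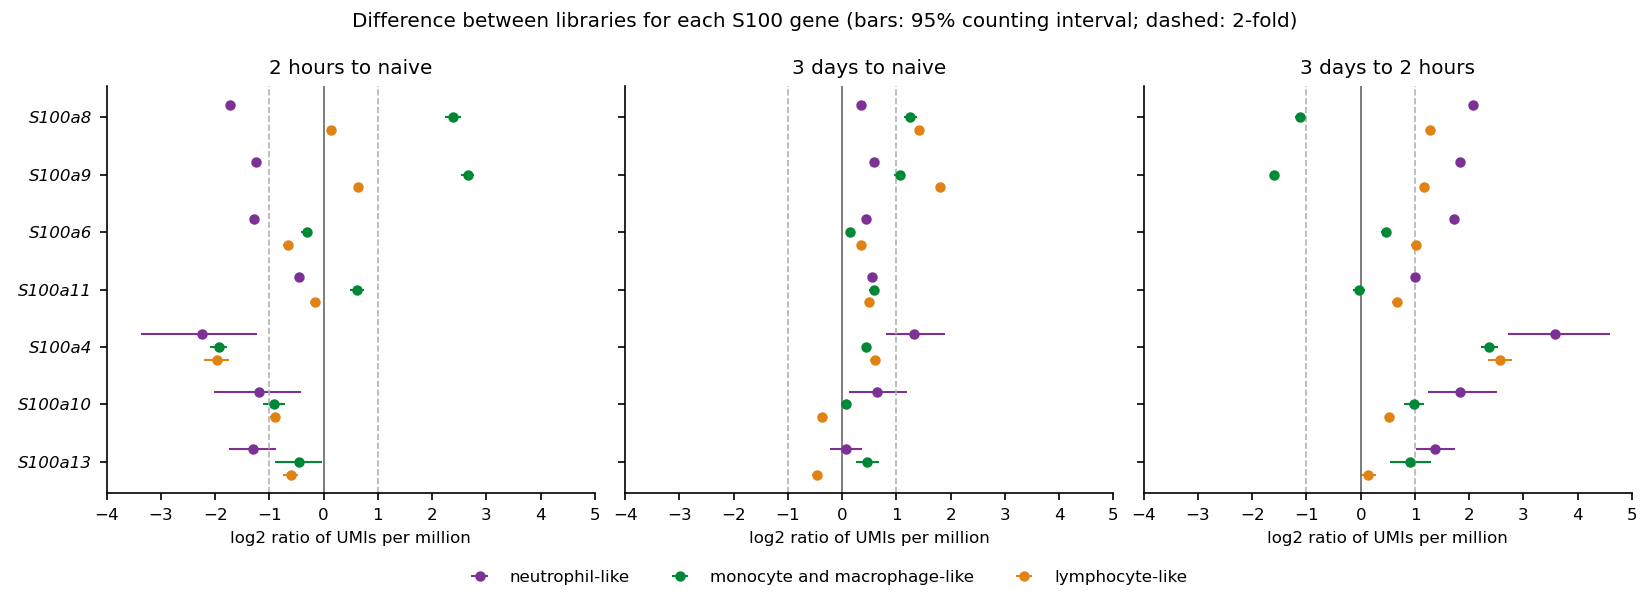
Log2 ratio of CPM between libraries for each S100 gene in neutrophil-like (purple), monocyte and macrophage-like (green) and lymphocyte-like (orange) cells, with 95% counting intervals and dashed lines at 2-fold. In the panel of 3 days to 2 hours all 7 purple points lie at or beyond the 2-fold line on the right, whereas the green points of S100a8 and S100a9 lie at -1.13 and -1.6.

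S100a4 had its highest level of the 5 main classes in monocyte and macrophage-like cells, and it was lowest there at 2 hours. It was 1749 CPM in naive monocyte and macrophage-like cells (interval 1689 to 1811), 457 at 2 hours (409 to 508) and 2358 at 3 days (2340 to 2377). On the log2 scale the 2-hour level differed from the naive one by -1.94 (interval -2.1 to -1.78), and the 3-day level exceeded the 2-hour one by 2.37 (2.21 to 2.53). When every cell was thinned to 500 UMIs, 42.9% of naive, 16.6% of 2-hour and 57% of 3-day cells held an S100a4 UMI, and the unthinned shares were 85%, 39.1% and 97%. In B-like cells, which are not known for this gene, the thinned shares were 0.54%, 0.22% and 2.19%. The 3-day class drew on 4 clusters that differed in the gene: it was 3292 CPM in the cluster led by Chil3, Vcan and Plac8, 1600 in that led by Saa3 and Arg1, 1299 in that led by Fcrls and C1qb, and 1117 in that led by Cd300e, Ace and Eno3. Every one of these stood above the main 2-hour cluster of 442 cells, led by Ace, Ear2 and Nupr1, at 463 CPM.

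S100a6 and S100a11 were also well expressed in monocyte and macrophage-like cells. S100a6 was 1894, 1521 and 2103 CPM in the naive, 2-hour and 3-day libraries. S100a11 was 654, 1001 and 977, and its 2-hour and 3-day intervals (930 to 1076 and 965 to 989) overlapped. S100a10, which carries annexin A2 to the plasma membrane, was 634, 335 and 664, low at 2 hours and overlapping between the naive (598 to 672) and 3-day (654 to 674) libraries. Within the 3-day class it was 884 CPM in the Chil3 cluster and 111 in the Cd300e and Ace cluster. S100a13 was 111, 81.1 and 152 CPM.

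S100a8 and S100a9 took a different order in this class from S100a4, S100a6, S100a10 and S100a13. S100a8 was 327 CPM in naive lungs, 1708 after 2 hours and 781 after 3 days. S100a9 was 444, 2795 and 924. The 2-hour library was the high one here, by 5.23-fold and 6.3-fold over the naive library, where it was the low one in neutrophil-like cells. The difference rested on a minority of cells: at 2 hours 272 of 450 cells had no UMI of either gene and the 95th percentile cell gave 2.05% of its UMIs to the pair. Some other neutrophil transcripts were also highest at 2 hours in this class and others were not. Retnlg was 15.4, 763 and 58.6 CPM, Cxcr2 6.06, 168 and 15.6, G0s2 61.2, 303 and 51.2, and Lcn2 6.61, 105 and 69.1. By contrast Csf3r was 147, 139 and 146, Wfdc21 was highest at 3 days, at 11, 55.4 and 136, and Mmp9 was 6.06, 31.1 and 31.9. Ngp, Camp and Ltf had at most 4 UMIs at 2 hours. Relative to neutrophil-like cells of the same library, Csf3r stood at 5.83%, 16.2% and 5.51%. The summed level of 10 such transcripts (Retnlg, Cxcr2, Csf3r, G0s2, Wfdc21, Lcn2, Ngp, Camp, Ltf and Mmp9) was 257, 1571 and 509.9 CPM, with Retnlg giving 565 of the 1163 UMIs at 2 hours and Camp 0. As a share of the level in neutrophil-like cells of the same library S100a8 stood at 0.701%, 12.1% and 1.32%, against medians of 0.595%, 8.66% and 3.03% over the 10. Their part in the result was not tested. The thinned share of cells with either alarmin was 3.4% (interval 1.11% to 7.76%) in the naive library and 26.2% (24.3% to 28.2%) at 3 days, beside 4.3% and 23.3% of lymphocyte-like cells. The naive interval held the lymphocyte-like share, and the 3-day interval lay just above it. At 2 hours the share was 32.4% (28.1% to 37%) beside 11.5% (10.6% to 12.4%). How much of these shares is background was not tested.

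Of the 7 genes 2, S100a8 and S100a9, were at least 2-fold higher at 2 hours than in naive monocyte and macrophage-like cells, where 7.14% of 5883 genes were, and 1, S100a4, was at least 2-fold lower, where 28% were. From 2 hours to 3 days S100a4 was at least 2-fold higher, where 22.6% of 10373 genes were, and the alarmin pair at least 2-fold lower, where 7.59% were. Within the 3-day class S100a8 and S100a9 were 1561 and 2193 CPM in the Cd300e and Ace cluster. They were 801 and 700 in the Chil3 cluster and 528 and 906 in the Saa3 and Arg1 cluster. The Fcrls and C1qb cluster held 282 and 370. The main 2-hour cluster, led by Ace, Ear2 and Nupr1, held 1759 and 2879. The part of cluster mix in the class values was not tested. From naive to 3 days the alarmin pair was at least 2-fold higher, where 10.6% of 10495 genes were, and none was lower, where 14.5% were. The last of these reversed with log-normalization before clustering, at -1.5 for S100a8 and -1.41 for S100a9, and the alarmin values from 2 hours to 3 days reversed with cells called one by one from marker UMIs, at 2.03 and 1.58. The median of all genes was -0.36 for 2 hours to naive and 0.3 for 3 days to 2 hours on the log2 scale in this class.

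**Figure D4:**
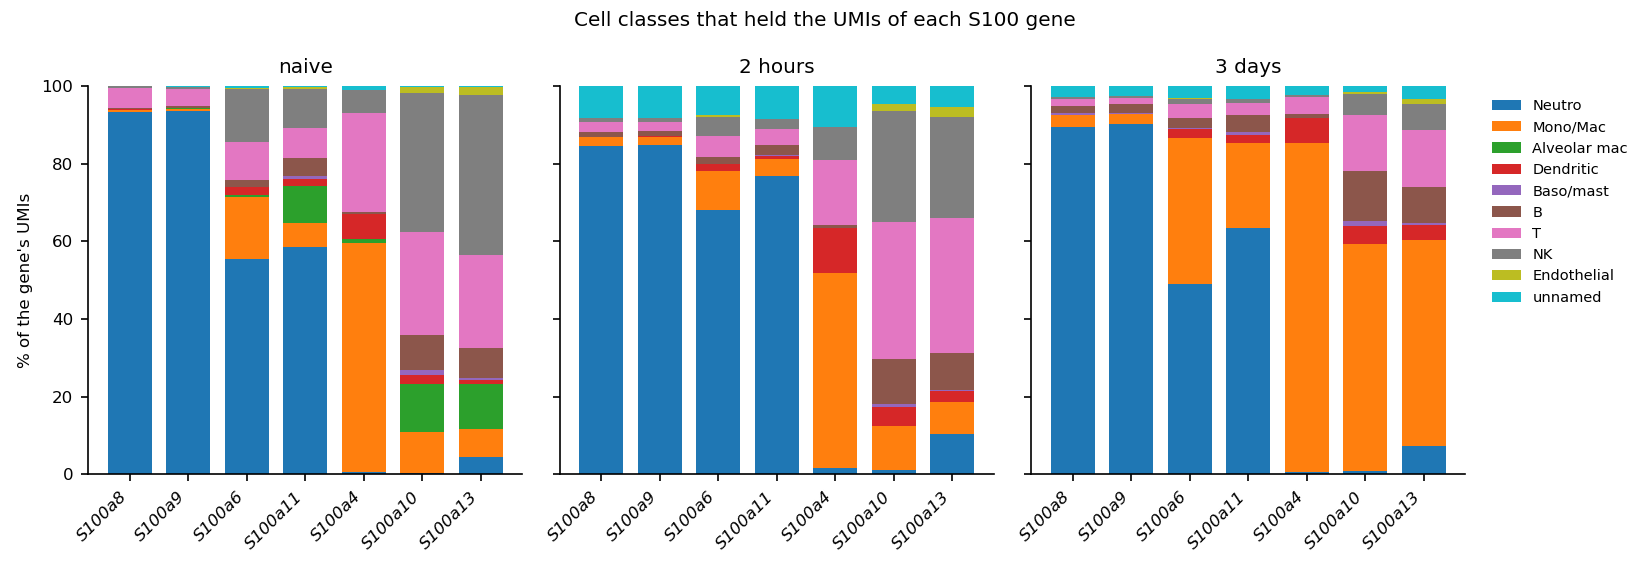
Percent of the UMIs of each S100 gene that fell in each cell class, by library; each bar sums to 100%. Neutrophil-like cells held 84.6% to 93.5% of S100a8 and S100a9, monocyte and macrophage-like cells 50.1% to 84.8% of S100a4, and T-like and NK-like cells together the larger part of naive S100a10 and S100a13.

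The classes that held the UMIs separated the 7 genes. Neutrophil-like cells held 93.2%, 84.6% and 89.5% of S100a8 in the naive, 2-hour and 3-day libraries, while they gave 10.8%, 32.6% and 15.6% of all UMIs. For S100a6 the shares were 55.4%, 68.2% and 49.1%, and for S100a11 58.6%, 76.8% and 63.5%. Monocyte and macrophage-like cells held 59.1%, 50.1% and 84.8% of S100a4. S100a10 was held mainly by NK-like (35.7%) and T-like (26.6%) cells in the naive library and by monocyte and macrophage-like cells (58.6%) at 3 days, when that class gave 40.9% of all UMIs. Fewer cells of a class and less RNA per cell cannot be told apart in these shares.

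In lymphocyte classes S100a10 stood above its neutrophil level, as did S100a13 in T-like and NK-like cells, whereas S100a8 and S100a9 stood at a small fraction of it. S100a10 was highest in NK-like cells, at 912, 617 and 787 CPM in the naive, 2-hour and 3-day libraries, and it was 494, 247 and 477 in T-like and 276, 198 and 345 in B-like cells. S100a13 followed the same order, at 261, 190 and 247 in NK-like, 111, 81 and 123 in T-like and 59.5, 53.9 and 63.7 in B-like cells. The order NK-like, T-like, B-like thus held in all 3 libraries for both genes, with intervals that did not overlap between neighbouring classes. For S100a13 within B-like cells the intervals of the 3 libraries overlapped, and those of the naive (51.8 to 68.2) and 3-day (59.1 to 68.7) libraries overlapped the neutrophil-like ones (44.4 to 64.2 and 51.7 to 61.1).

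Among lymphocyte classes, S100a4 was lowest at 2 hours beyond counting error in T-like cells. There, where it is known from memory cells, it was 234 CPM in naive lungs (interval 222 to 247), 36 after 2 hours (29.7 to 43.3) and 351 after 3 days (339 to 363). In NK-like cells it was 73, 55.4 and 166, and the naive and 2-hour intervals overlapped. In B-like cells it was 8.51, 3.9 and 61.4 CPM, from 30, 5 and 668 UMIs, and the naive and 2-hour intervals (5.74 to 12.1 and 1.27 to 9.11) overlapped. S100a6 was 354, 189 and 560 in T-like cells, 684, 557 and 954 in NK-like cells and 103, 155 and 372 in B-like cells, so only in B-like cells was its naive level the lowest. S100a11 was between 220 and 597 CPM over the 3 classes and highest at 3 days in each.

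S100a8 and S100a9 differed between the lymphocyte classes and the libraries. In B-like cells S100a8 was 73.4 CPM in naive lungs (interval 64.8 to 82.9), 640 after 2 hours (597 to 686) and 1166 after 3 days (1146 to 1186). S100a9 was 125, 1086 and 1775 CPM there. In NK-like cells S100a8 was 135, 564 and 1602 and S100a9 was 174, 758 and 2412. The naive library was the low one and the 3-day library the high one in both classes, and the 2-hour B-like level was 3.12 above the naive one on the log2 scale for each gene. T-like cells departed from this order, with S100a8 at 952, 451 and 1294 and S100a9 at 1020, 720 and 1749 CPM. That departure rested on 1 cell, a naive barcode of the T-like class that lay outside the naive T-like cluster of 572 cells. It had 23871 UMIs, of which 8011 were alarmin UMIs, or 59% of all those in naive lymphocyte-like cells. It also held 1057 Ngp and 1221 Camp UMIs and was not called a doublet. Without it the naive T-like levels were 299 and 307 CPM, below those at 2 hours. The naive B-like and NK-like levels also rested on 1 cell each, called a doublet, which held 52.8% and 72.3% of the alarmin UMIs of its class. Without that cell the pair was 94.1 in place of 199 CPM in naive B-like cells and 86.1 in place of 309 in naive NK-like cells. Cells with at least 1% of their UMIs on the pair held 81.8% of the B-like alarmin UMIs at 2 hours and 83.9% at 3 days. Outside such cells the pair was 340 and 494 CPM in B-like cells at 2 hours and 3 days, and 370 and 476 in NK-like cells.

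Summed over B-like, T-like and NK-like cells, S100a8 was 469, 516 and 1258 and S100a9 524, 813 and 1822 CPM. The pair stood 0.42 higher at 2 hours than in naive cells on the log2 scale (interval 0.38 to 0.46), and 1.21 higher at 3 days than at 2 hours (1.18 to 1.25). With the richest cell of each library left out, an alternative chosen after seeing the data, the first became 1.68. It was -1.21 with called doublets removed, which left the naive cell with 8011 alarmin UMIs in place. The first was 2.19 with S100 genes kept among the clustering features, under which the second was -0.09. The order of the libraries in lymphocyte-like cells therefore depended on which cells were counted, and no order is read from it.

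The alarmin UMIs of lymphocyte-like cells were concentrated in few cells. Cells with at least 1% of their UMIs on the pair made up 7 of 1650 in naive lungs (0.424%), 165 of 4942 after 2 hours (3.34%) and 94 of 3269 after 3 days (2.88%), and they held 91.2%, 75% and 86.2% of the class's alarmin UMIs. Scrublet, which marks barcodes that resemble sums of 2 cells, had called 85.7%, 89.7% and 84% of these cells doublets, against 1.58%, 3.43% and 1.89% of the rest. S100 genes were left in the Scrublet input, so these calls are not independent of the alarmin share. The median UMI count of the alarmin-rich cells at 2 hours was 1754 against 955 in the rest, and at 3 days 8958 against 5601. Cells within a factor of 2 of that threshold numbered 3, 170 and 31. In the remaining cells, whose share is held under 1% by the cut itself, the pair stood at 88.6, 353 and 445 CPM. The part of doublets in these levels was not tested.

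Other neutrophil transcripts were found in lymphocyte-like cells in like proportion. As a share of the neutrophil level in the same library, S100a8 stood at 0.157%, 4.53% and 1.97% in B-like cells, 2.04%, 3.19% and 2.19% in T-like cells and 0.29%, 3.99% and 2.71% in NK-like cells. The medians over the 10 other neutrophil transcripts were 0.218%, 3.89% and 2.34% in B-like, 1.84%, 2.71% and 2.02% in T-like and 0.306%, 3.06% and 2.59% in NK-like cells. S100a8 was within the range of the 10 in each of these 9 class and library pairs. Summed over the 10 genes, the level in lymphocyte-like cells was 285 in naive lungs, 535 after 2 hours and 415 after 3 days, against 15091, 17820.4 and 17469.8 CPM in neutrophil-like cells. The single naive barcode described above held 1057 of the 1063 Ngp and 1221 of the 1226 Camp UMIs of naive T-like cells. It also held 3828 of their 5574 S100a8 UMIs, so the naive T-like shares and range rest largely on it. The naive sum of 285 CPM came from 3893 UMIs, those of this barcode included. S100a6 and S100a11 stood higher, at 7.05% and 9.22% of the neutrophil level in B-like cells at 2 hours and 25.4% and 10.9% in NK-like cells.

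**Figure D5:**
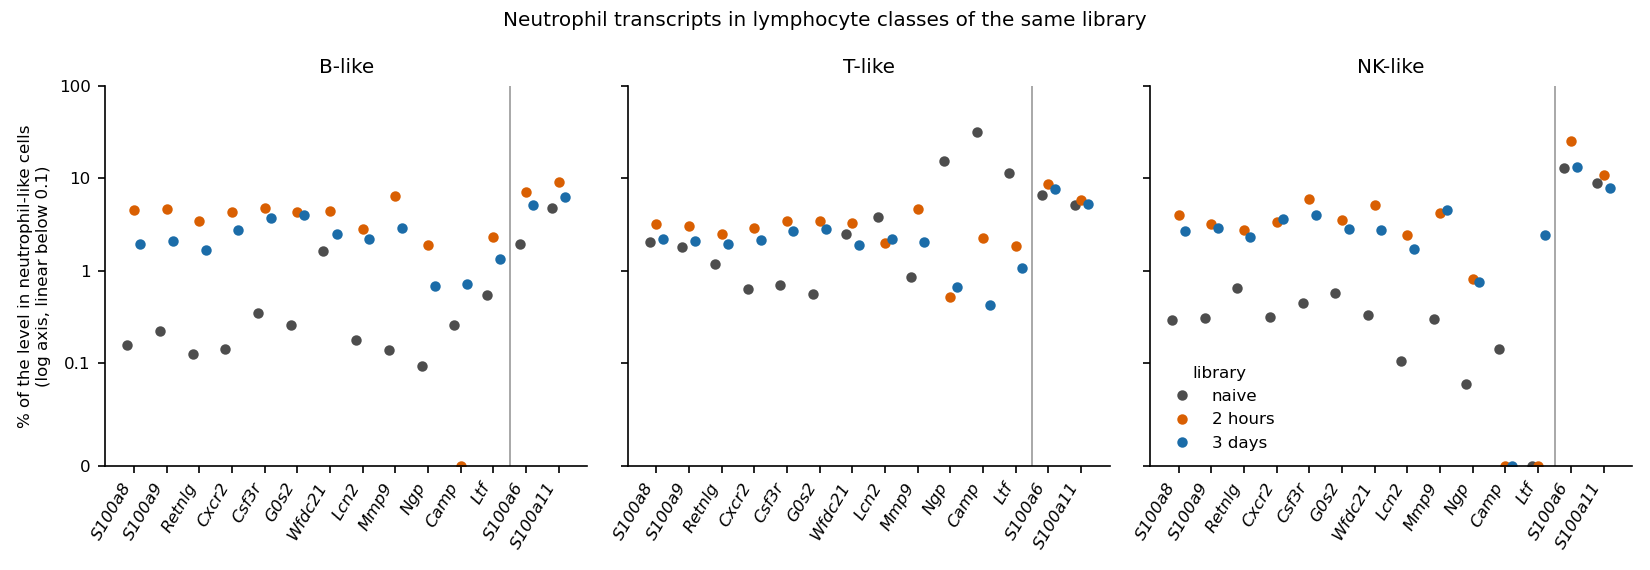
Level of S100a8, S100a9, 10 other neutrophil transcripts and, right of the line, S100a6 and S100a11 in B-like, T-like and NK-like cells as a percent of the level in neutrophil-like cells of the same library (log axis, linear below 0.1%). In B-like cells the S100a8 points at 0.157%, 4.53% and 1.97% lie among those of the other transcripts, and in T-like cells the naive Ngp and Camp points, at 15.5% and 32.1%, stand apart. Those naive T-like points rest on the single barcode with 8011 alarmin UMIs.

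After thinning to 500 UMIs, 4.14% of naive B-like cells, 13% at 2 hours and 25.2% at 3 days held an alarmin UMI, with 58 cells at 2 hours too shallow to be thinned. Before thinning the shares were 45.5%, 15.9% and 89.6%, with the 2-hour library, the shallowest, as the low one. In neutrophil-like cells the thinned shares were 97.7%, 98.9% and 99.3%. T-like shares after thinning were 4.67%, 10.5% and 19.4%. NK-like shares were 4.07%, 11.8% and 24.7%, so all 3 classes were lowest in the naive and highest in the 3-day library, and the T-like share at 3 days (interval 17% to 22%) was below the B-like one (23.2% to 27.2%). The ratio of S100a8 to S100a9 UMIs in B-like cells was 0.586, 0.59 and 0.657, against 0.835, 0.6 and 0.705 in neutrophil-like cells. The 2-hour intervals overlapped (0.54 to 0.643 and 0.593 to 0.607), whereas the naive and 3-day ones did not. These intervals leave out the spread between cells. In B-like cells 1 naive cell held 52.8% of the alarmin UMIs, and 54 cells held 83.9% at 3 days. At 2 hours the T-like ratio of 0.626 (0.586 to 0.67) also overlapped the neutrophil-like one. The NK-like ratio of 0.743 (0.666 to 0.829) lay above it.

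Antibody counts gave a second measurement of the same cells in the transplant libraries. Both carried 277 antibody features, and the CD44 antibody gave 77.7% of the counts on neutrophil-like cells at 2 hours. The median CD44 count was 80 on neutrophil-like cells and 4 on B-like cells under 1% alarmin UMIs at 2 hours, and it was 70 on the 59 B-like cells at or over 1%. CD45R, a B cell antigen, had medians of 21 on those 59 cells, 17 on the other B-like cells and 0 on neutrophil-like cells. At 3 days the corresponding CD44 medians were 60, 4 and 63, and the CD45R medians were 0, 17 and 17. The alarmin-rich B-like barcodes therefore carried the B cell antibody at the level of other B-like cells and CD44 at the level of neutrophil-like cells. CD44 was not confined to neutrophil-like cells, with medians of 39 and 46 on monocyte and macrophage-like cells at 2 hours and 3 days. Alarmin-rich B-like cells also had more antibody counts in all, at a mean of 152 against 41.7 at 2 hours. T-like cells gave CD44 medians of 90.5 at or over 1% and 2 under it at 2 hours.

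In lymphocyte-like cells 0 of the 7 genes were at least 2-fold higher at 2 hours than in the naive library, where 7.06% of 10889 genes were, and 1, S100a4, was at least 2-fold lower, where 31.1% were. That count of 0 depended on the single naive cell with 8011 alarmin UMIs. Without it naive S100a8 and S100a9 were 189 and 218 CPM, beside 516 and 813 at 2 hours. From 2 hours to 3 days 4 of 7 (S100a4, S100a6, S100a8 and S100a9) were at least 2-fold higher, where 14.8% of 10978 genes were, and 0 were lower, where 6.53% were. S100a8 and S100a9 reversed in this comparison with S100 genes kept among the clustering features, at -0.082 and -0.101, the count was 0 without upper limits on cells, and outside the alarmin-rich cells the pair was 353 CPM at 2 hours and 445 at 3 days. From naive to 3 days S100a8 and S100a9 were at least 2-fold higher, where 6% of 11789 genes were, and none was lower, where 21.1% were; both reversed without upper limits on cells, at -1.27 and -0.65. The median of all genes was -0.43, 0.26 and -0.11 on the log2 scale in these comparisons.

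The same counts were taken in each lymphocyte class. In B-like cells S100a8 and S100a9 were the 2 of 6 genes compared that were at least 2-fold higher at 2 hours than in naive cells, where 7.47% of 7961 genes were, and none was lower, where 31.5% were. Between naive and 3 days 4 of 7 B-like genes (S100a4, S100a6, S100a8 and S100a9) were at least 2-fold higher, where 6.28% of 9968 genes were, and 0 lower, where 18.5% were. Between 2 hours and 3 days 2 of 7 (S100a4 and S100a6) were higher, where 16.7% of 9474 genes were, and 0 lower, where 5.5% were. B-like S100a4 was 8.51, 3.9 and 61.4 CPM, beside 1749, 457 and 2358 in monocyte and macrophage-like cells of the same libraries. B-like S100a6 was 103, 155 and 372 CPM, beside 5324, 2192 and 7235 in neutrophil-like cells. How much of the B-like S100a4 and S100a6 is background or doublets was not tested. Of alarmin-rich B-like cells 88.1% at 2 hours and 74.1% at 3 days were called doublets. Such cells held 81.8% and 83.9% of the pair's UMIs in the class. Outside them the pair was 94.1, 340 and 494 CPM in naive, 2-hour and 3-day B-like cells.

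In T-like cells none was at least 2-fold higher at 2 hours than in naive cells, where 6.89% of 9109 genes were, and S100a4, S100a8 and S100a10 were at least 2-fold lower, where 28.5% were; the S100a8 value rests on the single cell above. Between naive and 3 days 0 of 7 T-like genes were higher and 0 lower, where 4.03% and 18% of 10011 genes were. Both counts of higher genes against naive T-like cells depended on that single cell. Without it naive S100a8 and S100a9 were 299 and 307 CPM, beside 451 and 720 at 2 hours and 1294 and 1749 at 3 days. Between 2 hours and 3 days 4 of 7 (S100a4, S100a6, S100a8 and S100a9) were higher, where 12.7% of 9325 genes were, and 0 lower, where 6.23% were. The 28 alarmin-rich T-like cells at 3 days, all called doublets, held 88.1% of the alarmin UMIs of that class, and outside such cells the pair was 352 CPM at 2 hours and 379.7 at 3 days. In NK-like cells S100a8 and S100a9 were at least 2-fold higher at 2 hours than in naive cells, where 6.7% of 8271 genes were, and none was lower, where 28.6% were. Joined by S100a4, the pair was also at least 2-fold higher in NK-like cells at 3 days than in naive cells, where 3.97% of 8687 genes were, and than at 2 hours, where 12.3% of 6494 genes were. None was lower in either, where 17.7% and 5.7% were. Outside alarmin-rich cells the pair was 86.1, 370.2 and 476 CPM in NK-like cells.

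Receptors and partners of the S100 proteins were read from a list of 24 genes. For the alarmin receptors, Tlr4 was 156, 144 and 84.5 CPM in naive, 2-hour and 3-day neutrophil-like cells, and 36.4, 44.6 and 38.3 in monocyte and macrophage-like cells, where the intervals overlapped. Cd14, the TLR4 coreceptor, was 1898, 2877 and 2076 CPM in neutrophil-like cells and 621, 1096 and 1116 in monocyte and macrophage-like cells. Ager, which encodes RAGE, was at most 2.72 CPM in either class. In B-like cells Tlr4 was 6.81, 10.9 and 7.35 CPM, with overlapping intervals. Among the annexins, Anxa1, whose product binds S100A11, was 521, 189 and 977 CPM in neutrophil-like cells and 322, 139 and 381 in monocyte and macrophage-like cells. Anxa2, whose product binds S100A10, was 897, 477 and 1192 and 781, 547 and 962. Both annexins were thus lowest at 2 hours in both classes, as S100a10 was.

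Of the 24 listed genes 15 had enough UMIs to be compared between 3 days and 2 hours in neutrophil-like cells: 6 (Ly96, Mcam, Anxa1, Anxa2, Anxa6 and Ahnak) were at least 2-fold higher and 1 (Il1a) at least 2-fold lower, where 14.1% and 7.34% of all genes were, with a median log2 ratio of 0.75 against 0.2 over all genes. In monocyte and macrophage-like cells 4 of 14 were at least 2-fold higher at 3 days (Anxa1, Anxa5, Anxa6 and Il1a) and 0 lower, where 22.6% and 7.59% of all genes were, with a median of 0.67 against 0.3. For 2 hours to naive the counts were 1 higher (Cd36) and 3 lower (Anxa1, Anxa5 and Anxa6) of 14 in neutrophil-like cells, where 10.5% and 22.6% of all genes were, and 0 higher and 2 lower (Anxa1 and Anxa6) of 13 in monocyte and macrophage-like cells, where 7.14% and 28% were. These counts for 2 hours to naive, and the higher count in monocyte and macrophage-like cells at 3 days, are near or below the share of all genes. Il1a, whose product leaves cells with S100A13, was 3.86, 5.4 and 83.9 CPM in monocyte and macrophage-like cells.

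Across the 22 sums of a class in a library with at least 50 cells, the genes most like each S100 gene were named by Pearson's r of log2(CPM + 10) over 4908 genes. S100a8 and S100a9 were nearest to each other (r = 0.994), followed by Mmp9 (r = 0.954 with S100a8) and Stfa2l1 (r = 0.964 with S100a9). S100a4 was nearest to Ms4a6c (r = 0.873) and Ccr2 (r = 0.843), both monocyte genes. S100a10 was nearest to Ppia (r = 0.913), S100a11 to Sesn2 (r = 0.932), S100a13 to Pea15a (r = 0.92) and S100a6 to Il10rb (r = 0.853). S100a8 and S100a10 ran opposite to each other (r = -0.769). These sums share libraries, depth and free RNA, so r is given as a description only.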

How the data were processed

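Single-cell RNA sequencing was read from 3 libraries: naive lung and lung grafts at 2 hours and 3 days of reperfusion. The authors deposited filtered matrices of UMI counts per gene and cell; the submitters' processing notes name Cell Ranger 6, Seurat 4 and mm10, while file headers name Cell Ranger 7.1.0 (naive) and 6.0.0 (transplants). The labels list 5′ and 3′ kits and the methods 3′ only, so chemistry per library is unsettled; introns may or may not have been counted (not given in the sources used here). Kept cells had over 200 and under 6000 genes, less than 10% of UMIs from mitochondria and less than 25000 UMIs in all. They were clustered without S100 genes (Seurat 5.3.0, sctransform 0.4.2, 3000 features, 30 components, resolution 0.8, no integration) and named from marker lists. Scrublet (scanpy 1.11.5) called doublets within each library with S100 genes left in its input, and these were kept except in an alternative. Counts were summed per class and library and divided by all gene UMIs. Intervals are 95% exact Poisson for levels, exact conditional binomial for ratios and Clopper-Pearson for shares; UMI intervals cover counting error only. Genes with under 50 UMIs over both libraries compared were not counted as at least 2-fold different. For thinned shares each cell was reduced to 500 UMIs. The calculation was tested on simulated data. Genes named are the 7 S100 genes, other S100 genes, a list of 24 partners and receptors, 10 other neutrophil transcripts, leading genes of clusters and the 3 nearest genes; members and lists were chosen with earlier results of these data known. Gene positions come from GENCODE vM21 and promoter sequences from RefSeq, both on GRCm38; 10 alternatives were planned and 3 were chosen after seeing the data.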

Additional observations from a re-analysis of the deposited data

Results flagged for a closer look

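S100a8 and S100a9 moved in opposite directions in different cell classes between the same libraries, which is why they are listed here; each difference between classes was not tested, since there was 1 library per condition. From naive to 2 hours the log2 ratio of S100a8 was 2.39 in monocyte and macrophage-like cells, 3.12 in B-like cells and 2.06 in NK-like cells, but -1.72 in neutrophil-like and -1.08 in T-like cells. The T-like value rests on the single naive cell with 8011 alarmin UMIs; without it the naive T-like level of S100a8 was 299 CPM against 451 at 2 hours. Naive B-like and NK-like cells each held 1 alarmin-rich cell, called a doublet, without which the pair was 94.1 in place of 199 CPM and 86.1 in place of 309. At 2 hours the pair outside alarmin-rich cells was 340 CPM in B-like and 370 in NK-like cells. S100a9 had ratios of 2.65 in monocyte and macrophage-like, 3.12 in B-like and 2.12 in NK-like cells, and -1.25 in neutrophil-like cells.

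From 2 hours to 3 days S100a8 had log2 ratios of 2.06 in neutrophil-like, 1.52 in T-like and 1.51 in NK-like cells and -1.13 in monocyte and macrophage-like cells. S100a9 had ratios of 1.83 in neutrophil-like, 1.28 in T-like and 1.67 in NK-like cells and -1.6 in monocyte and macrophage-like cells. The monocyte and macrophage-like values compare different clusters. At 3 days the Cd300e and Ace cluster held S100a8 at 1561 and S100a9 at 2193 CPM, and the other clusters of the class held less. The main 2-hour cluster, led by Ace, Ear2 and Nupr1, held 1759 and 2879. Alarmin-rich cells held 88.1% and 88.8% of the pair's UMIs in T-like and NK-like cells at 3 days, and 100% and 91.7% of them were called doublets. Such cells were picked by the pair's own share, so leaving them out lowers the level by construction. The part of doublets in these values was not tested. Outside such cells the pair was 352 CPM at 2 hours and 379.7 at 3 days in T-like cells, and 370.2 and 476 in NK-like cells.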

How the results depend on the processing

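Of 63 log2 ratios of an S100 gene, 29 were at least 2-fold. These 29 include S100a4 in neutrophil-like cells, 2 hours to naive, which had too few UMIs (11 and 33) for the counts above. Of 253 values for the 29 under the alternatives, 221 stayed at least 2-fold in the same direction and 10 reversed. For the alarmin pair in neutrophil-like cells, 2 hours to naive (-1.44) and 3 days to 2 hours (1.92) became -1.48 and 1.9 with S100 genes kept for clustering, -1.45 and 1.89 without upper cell limits, -1.46 and 1.83 at resolution 0.4, -1.25 and 1.75 as a mean over cells, -1.25 and 1.74 when thinned, -1.93 and 1.96 over genes with short introns, and -1.46 and 1.83 with unnamed neutrophil-scored clusters added. In lymphocyte-like cells the same comparisons (0.42 and 1.21) became 2.19 and -0.094 with S100 genes kept, 1.97 and 1.26 with log-normalization, -1.02 and 0.104 without upper limits, -1.21 and 1.3 without doublets, 0.601 and 1.42 with cells called one by one, 0.88 and 1.32 as a mean, 0.98 and 1.28 when thinned, -0.072 and 1.28 over short-intron genes, and 2.17 and 1.02 without cells rich in other neutrophil transcripts; the first was 1.68 without the richest cell and the second 1.15 at resolution 1.2. From 2 hours to 3 days, genes at least 2-fold higher numbered 3 in place of 1 in monocyte and macrophage-like cells when called one by one or over short-intron genes, and in lymphocyte-like cells 1 with S100 genes kept and 0 without upper limits in place of 4. Reversed single values were S100a6 in lymphocyte-like cells, 3 days to 2 hours, called one by one (-0.48); S100a8 and S100a9 in monocyte and macrophage-like cells, 3 days to naive with log-normalization (-1.5 and -1.41) and 3 days to 2 hours called one by one (2.03 and 1.58); and in lymphocyte-like cells, 3 days to naive without upper limits (-1.27 and -0.65) or, for S100a8, without doublets (-0.23), and 3 days to 2 hours with S100 genes kept (-0.082 and -0.101). The cause was not tested. Monocyte and macrophage-like cells at 2 hours were under 50, and gave no value, with log-normalization (16 cells), without upper limits (2) and at resolution 0.4 (8), as were naive (8) and 3-day (29) neutrophil-like and naive monocyte and macrophage-like (28) cells called one by one. The alternatives without the richest cell, without cells rich in other neutrophil transcripts and with added clusters were chosen after seeing the data. No paired analysis was possible because each condition had 1 library. The 2-hour cells, at a median of 878 UMIs, limit what can be detected per cell.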

Other observations

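Alveolar macrophage-like cells, a class named in the naive library alone, differed from the monocytes of that library in their S100 genes. Absence of the class from the grafts cannot be told apart from the sort for recipient cells. S100a6 was 53.9 CPM (interval 44.2 to 65.2) in 102 alveolar macrophage-like cells and 1894 in monocyte and macrophage-like cells, and S100a4 was 26.2 and 1749. The S100a10 intervals overlapped, at 685 (649 to 723) and 634 (598 to 672), and S100a11 was higher in alveolar macrophage-like cells, at 926 against 654.

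Dendritic-like cells carried S100a4 at 427 CPM in 72 cells after 2 hours and 2360 in 113 cells after 3 days, with S100a6 at 1046 and 1804. The naive library held 20 such cells. Their cluster was led both by plasmacytoid markers (Siglech, Ccr9) and by other dendritic markers (Cd209a, Ccl22). A different mix of these cells cannot be told apart from a different level within them. Basophil and mast-like cells had little S100a4, at 0, 11.3 and 136 CPM, from 0, 1 and 96 UMIs, but S100a10 at 858, 215 and 600.4 and S100a11 at 1054, 566 and 1194. Their S100a8 at 3 days was 3009 CPM in 113 cells, with a median cell at 0.046% of UMIs from the alarmin pair.

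Of the 11 other genes with an S100 symbol, S100a1 was 23.7, 33.8 and 45.7 CPM in monocyte and macrophage-like cells (naive, 2 hours and 3 days), with overlapping naive and 2-hour intervals. S100a16 was 271, 108 and 286 CPM in endothelial-like cells and at most 1.8 in neutrophil-like and 0.345 in monocyte and macrophage-like cells. The endothelial-like cluster was led by Sftpc, a surfactant gene of alveolar epithelium, and Ager stood there at 234, 791 and 794 CPM.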
